A study of Mus musculus with 12 samples.

Results

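The 10 genes described here encode the MHC class II presentation machinery of the mouse: the classical chains H2-Aa, H2-Ab1 and H2-Eb1, the invariant chain Cd74, the non-classical chains H2-DMa, H2-DMb1, H2-DMb2, H2-Oa and H2-Ob, and the transactivator Ciita. They were chosen by name, and all 10 were found among 36528 counted gene IDs and passed the filter on low counts that left 16032 genes to test. RNA was sequenced from whole liver of 12 mice, 6 given carbon tetrachloride (CCl4, an organic solvent made toxic by liver cytochrome P450 enzymes) and 6 given its corn oil vehicle. Both groups were injected into the peritoneum 3 times per week for 6 weeks, a scheme used to scar the mouse liver, and they differ only in the agent as far as the labels say. The labels give no strain, sex, age or dose, and do not say whether animals shared a cage or litter. The p-values set the group difference against the spread between livers, taken as independent, which the labels do not settle.

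Class II molecules carry peptides from the endosomes of antigen-presenting cells to the surface, where CD4 T cells read them. The classical alpha and beta chains assemble with the invariant chain, which blocks the groove and steers the complex to endosomes. There H2-DM exchanges the last invariant chain fragment for peptide, H2-O restrains H2-DM, and only the classical chains present the peptide to T cells. Ciita, which binds no DNA itself, docks on factors bound at conserved promoter boxes and is known as the master switch of class II transcription. In liver the main carriers are Kupffer cells and other macrophages, dendritic cells and B cells, so that in bulk RNA more cells of a type and more RNA per cell cannot be told apart.

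After CCl4 the non-classical chains rose, the classical chains were higher by a smaller amount that mostly missed the threshold, and Cd74 and Ciita did not pass. Of the 10 genes 6 rose and 0 fell at an adjusted p of 0.05 (edgeR's quasi-likelihood test, Benjamini-Hochberg over all tested genes), where 20.6% of all tested genes rose and 18.4% fell (39.0% in all). That balance depended on scaling, with 3305 genes risen and 2951 fallen as reported and 4164 and 2022 under upper-quartile scaling, which moved the median of all genes by more than 0.1 on the log2 scale. All 5 non-classical chains rose, with a median log2 fold change of 0.87, and 1 of 3 classical chains rose, with a median of 0.50, against 0.01 over all tested genes. These calls were not equally firm: H2-Aa passed in 9 of 22 alternative fits and H2-DMb2 in 9 of 21. The 1 ratio tested between the kinds, H2-DMa over H2-Ab1, did not pass (exact permutation test, adjusted p = 0.151). The largest change was that of H2-Oa, which was 2.98-fold higher. It was the 1 gene of the 10 whose 6 CCl4 livers all lay above all 6 oil livers, which held for 12% of tested genes; none of the 10 had all CCl4 livers below all oil livers, which held for 8.03% of tested genes.

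**Figure D1:**
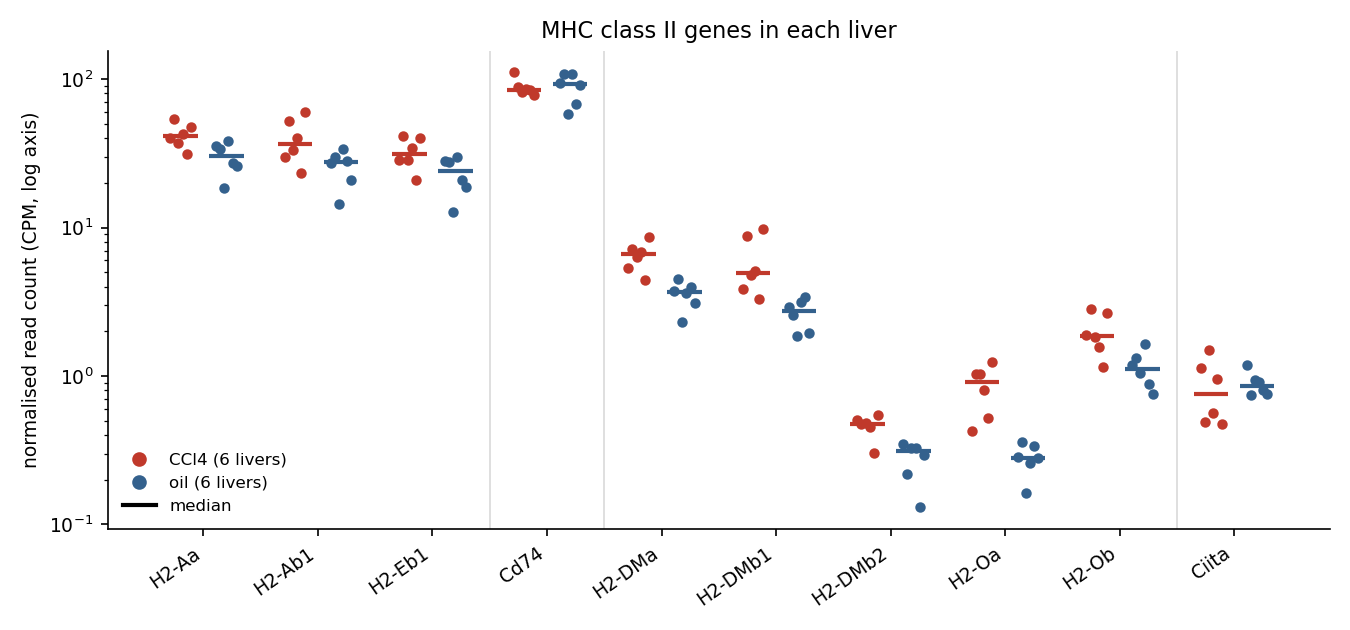
Normalised read counts (CPM, log axis) of the 10 genes in each of 12 livers, CCl4 in red and oil in blue, with the median of 6 as a bar; grey lines part classical chains, Cd74, non-classical chains and Ciita. The groups are apart for H2-Oa, with 0.426 CPM in the lowest CCl4 liver and 0.359 CPM in the highest oil liver, and lie over each other for Cd74 and Ciita.

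Promoter stretches of 5 of the genes are shown because class II genes are known to share an X box and a Y box, which hold the proteins that Ciita docks on. Windows of 300 bases, from 250 bases before the start to 50 after it, came from the RefSeq promoter table for GRCm38.p6. They were searched for 7 of the 10 genes (8 windows). The table held none for H2-Ab1 and Ciita. Windows on the chromosome of Cd74 were left out of the search and of the shares given below. The Y box was searched as ATTGG and the X box core as CCNNGNNAC, on both strands. The X core followed on the same strand by the Y box after 10 to 35 bases stood in 3 of the 8 windows. These were the windows of H2-Oa, H2-DMb1 and H2-Ob, against a share of 1.48% among the 32851 windows searched. A looser core lacking the first C, CNNGNNAC, was set after the sequences had been seen and also took in H2-Aa and H2-Eb1. It stood before a Y box in 4.18% of the windows searched. Below, 5′ to 3′ on the coding strand, the X core and the Y box are in capitals.
H2-Oa: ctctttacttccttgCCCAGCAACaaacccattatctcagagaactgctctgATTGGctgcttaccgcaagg
H2-DMb1: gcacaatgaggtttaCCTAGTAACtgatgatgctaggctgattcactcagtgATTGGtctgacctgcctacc
H2-Ob: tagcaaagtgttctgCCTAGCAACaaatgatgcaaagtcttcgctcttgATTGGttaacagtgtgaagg
H2-Aa: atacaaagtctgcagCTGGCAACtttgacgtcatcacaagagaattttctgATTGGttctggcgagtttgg
H2-Eb1: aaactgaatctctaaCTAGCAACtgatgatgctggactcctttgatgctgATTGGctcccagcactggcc
In GRCm38.p6 these lie at chr17:34092284-34092355 (plus strand, H2-Oa), chr17:34153078-34153149 (plus, H2-DMb1), chr17:34238799-34238867 (plus, H2-Ob), chr17:34287852-34287922 (minus, H2-Aa) and chr17:34305758-34305827 (plus, H2-Eb1). Between the capitals stood 25 to 28 bases in all 5 stretches. For H2-DMa the X cores and the Y box stood in separate windows. The window of H2-DMb2 held X cores and a Y box but no pair in this order and spacing. These matches describe letters, and the 5 stretches belong both to genes that rose and to H2-Eb1, which did not pass.

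The classical chains form the molecules that T cells see, H2-Aa and H2-Ab1 as the alpha and beta chains of I-A and H2-Eb1 as the beta chain of I-E. The gene of the I-E alpha chain, H2-Ea, was not found by name among the counted genes. Since the labels give no strain, whether I-E is formed in these livers is not known. H2-Aa (gene ID 14960, chromosome 17, 34282744 to 34287823) had 31.4, 41.4 and 54.0 CPM in the lowest, median and highest CCl4 liver, and 18.4, 30.5 and 38.0 CPM in the oil livers. Of the 6 CCl4 livers 4 lay above the highest oil liver, and the fitted log2 fold change was 0.50 ± 0.18 (SE, adjusted p = 0.0402). H2-Ab1 (gene ID 14961, chromosome 17, 34263227 to 34269418) had 23.3, 36.6 and 60.0 CPM in CCl4 livers, against 14.4, 27.5 and 33.8 CPM in oil livers.
The spread of H2-Ab1 was wide in both groups, 3 CCl4 livers lay above all oil livers, and a log2 fold change of 0.64 ± 0.24 did not pass (adjusted p = 0.0514). H2-Eb1 (gene ID 14969, chromosome 17, 34305867 to 34316674) had 21.0, 31.5 and 41.5 CPM in CCl4 livers and 12.7, 24.2 and 29.96 CPM in oil livers (log2 fold change 0.49 ± 0.22, adjusted p = 0.0864). The calls of these 3 chains hung on single livers. H2-Aa stayed past the threshold only without CCl4 replicate 5 or oil replicate 2 or 4 and lost its call without any of the other 9 livers (highest adjusted p = 0.0976). H2-Ab1 passed without CCl4 replicate 1 or 5 or oil replicate 4, and H2-Eb1 without CCl4 replicate 5. The known relative H2-Eb2, not among the 10 and at 2 to 68 reads per liver, averaged 0.5997 ± 0.188 CPM in CCl4 livers and 0.157 ± 0.0656 CPM in oil livers (SD, n = 6 each), and rose 3.79-fold (adjusted p = 0.000415).

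Cd74 (gene ID 16149, chromosome 18, 60803849 to 60812652), the chaperone of newly made class II chains, was the most abundant of the 10 genes. It had 78.3, 84.9 and 110.8 CPM in the lowest, median and highest CCl4 liver, against 58.2, 93.0 and 107.7 CPM in oil livers. The groups lay over each other, at 88.3 ± 11.6 CPM in CCl4 livers and 87.9 ± 20.5 CPM in oil livers (SD, n = 6 each), with a log2 fold change of 0.01 ± 0.16 that did not pass (adjusted p = 0.978). Ciita (gene ID 12265, chromosome 16, 10480014 to 10531064) had 0.476, 0.759 and 1.496 CPM in CCl4 livers and 0.738, 0.859 and 1.18 CPM in oil livers. In CCl4 3 livers lay below and 1 above the whole oil range (log2 fold change -0.05 ± 0.30, adjusted p = 0.902). These values rest on 26 to 125 reads per liver, and the span of Ciita also holds part of Dexi on the opposite strand, a gene at 24.9 CPM in CCl4 livers and 25.3 CPM in oil livers.

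H2-DM is the catalyst of peptide exchange, and its chains rose. H2-DMa, the alpha chain (gene ID 14998, chromosome 17, 34119693 to 34139101), had 4.45, 6.59 and 8.66 CPM in the lowest, median and highest CCl4 liver, against 2.32, 3.68 and 4.53 CPM in oil livers. All but 1 CCl4 liver lay above the highest oil liver, and the gene rose 1.82-fold (log2 fold change 0.87 ± 0.19 SE, adjusted p = 0.00264). H2-DMb1, the main beta chain (gene ID 14999, chromosome 17, 34153191 to 34160229), had 3.30, 4.97 and 9.81 CPM in CCl4 livers and 1.85, 2.75 and 3.41 CPM in oil livers.
Here too 5 of 6 CCl4 livers were above all oil livers, and the rise was 2.24-fold (log2 fold change 1.17 ± 0.28, adjusted p = 0.00447). Its copy H2-DMb2 (gene ID 15000, chromosome 17, 34143229 to 34151553) was far lower, at 0.305, 0.476 and 0.549 CPM in CCl4 livers and 0.130, 0.310 and 0.347 CPM in oil livers. The rise of H2-DMb2 was 1.66-fold (adjusted p = 0.0360) and rested on 5 to 40 reads per liver; it held without CCl4 replicate 5 or oil replicate 1, 3 or 4 and missed the threshold without any of the other 8 livers (highest adjusted p = 0.0751). The transcripts of H2-DMb1 and H2-DMb2 were 94.1% identical over 1219 aligned bases, and 27.2% of the 50-base stretches of H2-DMb1 and 29.5% of those of H2-DMb2 occurred in another gene, so the division of reads between them is uncertain. None of the other 8 genes shared a 50-base stretch with another annotated gene when transcripts were read in the sense direction. Antisense matches were not searched. The span of H2-DMa overlaps the opposite-strand gene Brd2 by 3094 bases.

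H2-O, the inhibitor of H2-DM, is known chiefly from B cells, thymic epithelium and some dendritic cells. Its alpha chain H2-Oa (gene ID 15001, chromosome 17, 34092379 to 34095234) had 0.426, 0.914 and 1.25 CPM in the lowest, median and highest CCl4 liver, and 0.164, 0.282 and 0.359 CPM in oil livers. All CCl4 livers were above all oil livers, from 27 to 86 reads in CCl4 and 7 to 18 in oil livers, and the fitted log2 fold change was 1.58 ± 0.30 (adjusted p = 0.000930). The noncoding gene BC051537 runs antisense over the whole of H2-Oa; it averaged 0.224 CPM in CCl4 livers and 0.0484 CPM in oil livers, below the filter, and the sources used here do not say whether reads were counted by strand. The beta chain H2-Ob (gene ID 15002, chromosome 17, 34238905 to 34245908) had 1.15, 1.85 and 2.84 CPM in CCl4 livers, against 0.756, 1.12 and 1.64 CPM in oil livers. With 4 of 6 CCl4 livers above the oil range, H2-Ob rose 1.74-fold (log2 fold change 0.80 ± 0.25, adjusted p = 0.0211), but its adjusted p was 0.0560 when CCl4 replicate 2 was left out and 0.0506 when oil replicate 6 was.

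Per kilobase of transcript, the scale on which genes can be set against each other, the levels ran over more than 2 orders of 10. In CCl4 livers Cd74 stood at 62.6 ± 8.21 CPM per kilobase, H2-Aa at 37.3 ± 6.998, H2-Ab1 at 32.9 ± 11.6 and H2-Eb1 at 19.4 ± 4.72 (SD, n = 6). The non-classical chains followed with H2-DMb1 at 4.23 ± 1.91, H2-DMa at 3.22 ± 0.730, H2-Oa at 0.774 ± 0.295, H2-Ob at 0.743 ± 0.240 and H2-DMb2 at 0.311 ± 0.0561, and Ciita was last at 0.142 ± 0.0692 CPM per kilobase. Neighbours whose levels in CCl4 differed by less than the larger of their SDs were H2-Aa and H2-Ab1, H2-DMb1 and H2-DMa, and H2-Oa and H2-Ob. In oil livers Cd74 stood at 62.4 ± 14.6, H2-Aa at 26.4 ± 6.49, H2-Ab1 at 21.1 ± 5.69 and H2-Eb1 at 13.8 ± 4.03 CPM per kilobase. The order was the same in oil but for the chains of H2-O, where H2-Ob at 0.427 ± 0.119 CPM per kilobase was above H2-Oa at 0.258 ± 0.0632.

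Classical and non-classical chains were also compared within each liver. The mean log2 CPM of the 3 classical chains exceeded that of the 5 non-classical chains by 4.25 ± 0.14 in CCl4 and by 4.66 ± 0.23 in oil (SD, n = 6 each), a difference between groups of -0.42 on the log2 scale. CCl4 livers ran from 4.04 to 4.38; in oil replicate 3 stood at 4.22, within that range, and the other 5 from 4.63 to 4.87. This is a description with no test, since the members were chosen with results known.

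Ratios of single pairs, on which the scaling of a library has almost no bearing, were put to a two-sided exact permutation test over the 12 livers (smallest possible p = 0.00216), with adjustment over 9 ratios. None of the 9 passed. The nearest was H2-Oa over H2-DMa, the inhibitor against the enzyme's alpha chain, at 0.129 in CCl4 and 0.0877 in oil (log2 difference 0.56 ± 0.15 SE, exact p = 0.00866, adjusted p = 0.0779), with 5 of 6 CCl4 livers above all oil livers and CCl4 replicate 1 within them. Without CCl4 replicate 1 it passed (log2 difference 0.68, exact permutation adjusted p = 0.0390). H2-Ob over H2-Oa was 2.35 in CCl4 and 3.70 in oil (exact permutation p = 0.0476, adjusted p = 0.151).
Between enzyme and classical chain, H2-DMa over H2-Ab1 was 0.168 in CCl4 and 0.142 in oil (log2 difference 0.25 ± 0.12, exact permutation p = 0.0671, adjusted p = 0.151). Cd74 over H2-Ab1 was 2.32 in CCl4 and 3.46 in oil (log2 difference -0.58 ± 0.27, exact permutation p = 0.0671, adjusted p = 0.151), and 3 CCl4 livers lay below the oil range. The other 5 ratios, H2-Aa over H2-Ab1, H2-Eb1 over H2-Ab1, H2-DMa over H2-DMb1, H2-DMb2 over H2-DMb1 and Ciita over H2-Ab1, had adjusted p between 0.261 and 0.522. H2-DMa over H2-Ab1 was the 1 ratio of a non-classical to a classical chain, and it passed only with the length and GC trend removed (log2 difference 0.39, exact permutation adjusted p = 0.0195).

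**Figure D2:**
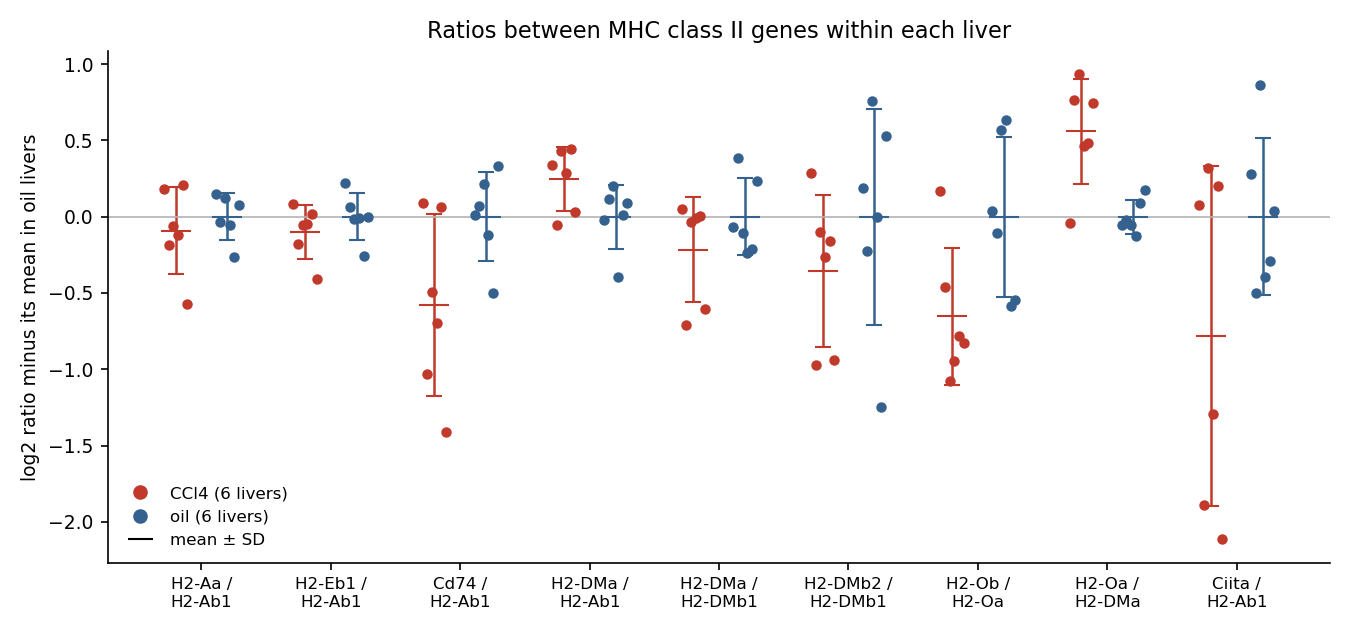
Log2 ratios of 9 pairs of class II genes in each liver, less the mean of the oil livers, CCl4 in red left of oil in blue, with mean ± SD of 6. H2-Oa over H2-DMa lies above the oil livers in 5 of 6 CCl4 livers, and the ratios of Cd74 and of Ciita to H2-Ab1 spread widest in CCl4.

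Livers of 1 group differed in the share of short transcripts, and in CCl4 livers H2-Ab1 was higher the more of them a library held; its part in the group differences was not tested beyond the fits given here. The length slope, the change of a library's log2 CPM per doubling of transcript length against the mean of all libraries, (negative: richer in short transcripts) was -0.096 ± 0.217 in CCl4 and 0.096 ± 0.140 in oil (SD, n = 6 each), with overlapping ranges of -0.38 to 0.16 and -0.15 to 0.26; the difference was not tested. H2-Ab1 was highest in CCl4 replicate 6 (slope -0.38, 60.0 CPM) and lowest among CCl4 livers in replicate 5 (slope 0.16, 23.3 CPM). Replicate 5 was the lowest CCl4 liver for 7 of the 10 genes, and replicates 6 and 2, the most negative slopes, were the highest for 8. The oil livers did not follow this order. Oil replicate 3, at a slope of 0.16, was the lowest for 7 genes with 18.4 CPM of H2-Aa, while oil replicate 1, at 0.17, had 35.3 CPM. Oil replicate 5 had the most negative oil slope, -0.15, with 27.2 CPM of H2-Aa and the lowest H2-DMb2 of all oil livers. Once the slope entered the fit as a covariate, H2-Ab1 had a log2 fold change of 0.18 (adjusted p = 0.442), of H2-Aa 0.32 (adjusted p = 0.159), of H2-Eb1 0.21 (adjusted p = 0.452), of H2-DMb2 0.73 (adjusted p = 0.0677) and of H2-Ob 0.51 (adjusted p = 0.120).
Past the threshold with the covariate were H2-DMa at 0.57 (adjusted p = 0.00631), H2-DMb1 at 0.59 (adjusted p = 0.0117) and H2-Oa at 1.12 (adjusted p = 0.00378). With a smooth trend in length and GC content taken out of each library, the log2 fold change was 0.75 for H2-DMa, 0.88 for H2-DMb1, 1.26 for H2-Oa and 0.71 for H2-Ob, all past the threshold, and 0.19 for H2-Aa and 0.48 for H2-DMb2, which were not. Cd74 had log2 fold changes of 0.10 with the covariate and -0.21 with the trend removed, and Ciita of 0.27 and 0.12, none past the threshold. H2-DMa and H2-DMb1 passed in all 22 alternative fits and H2-Oa in all 21 that tested it.

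**Figure D3:**
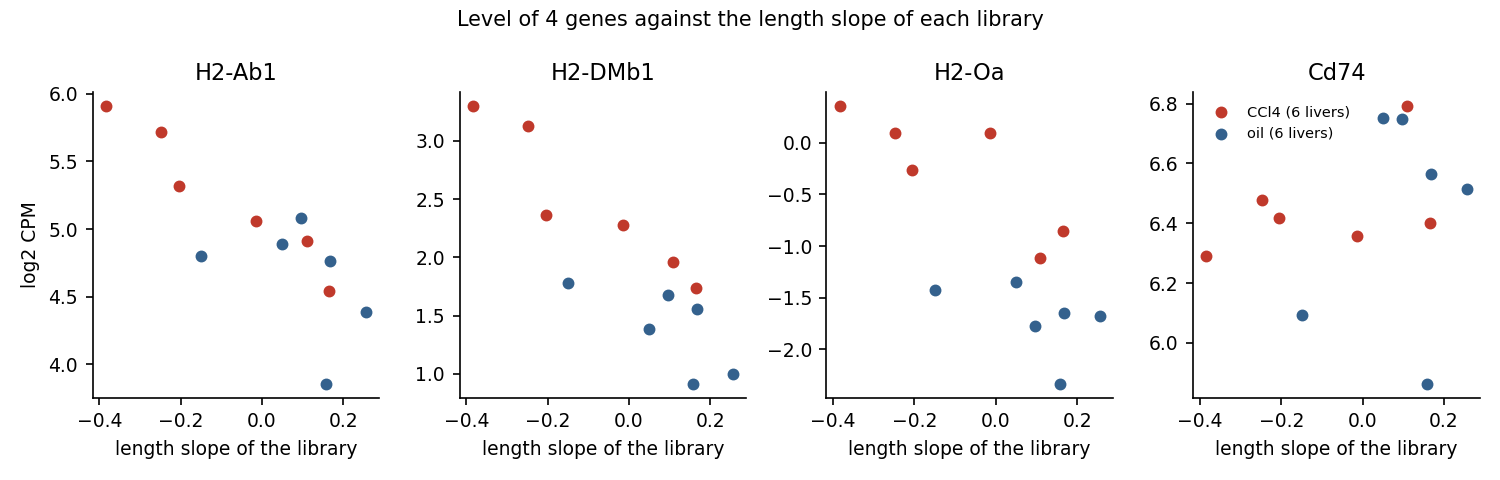
Log2 CPM of H2-Ab1, H2-DMb1, H2-Oa and Cd74 against the length slope of each library (negative: richer in short transcripts), CCl4 in red and oil in blue. H2-Ab1 is highest at slope -0.38 in CCl4 replicate 6, and Cd74 does not follow that order.

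**Figure D4:**
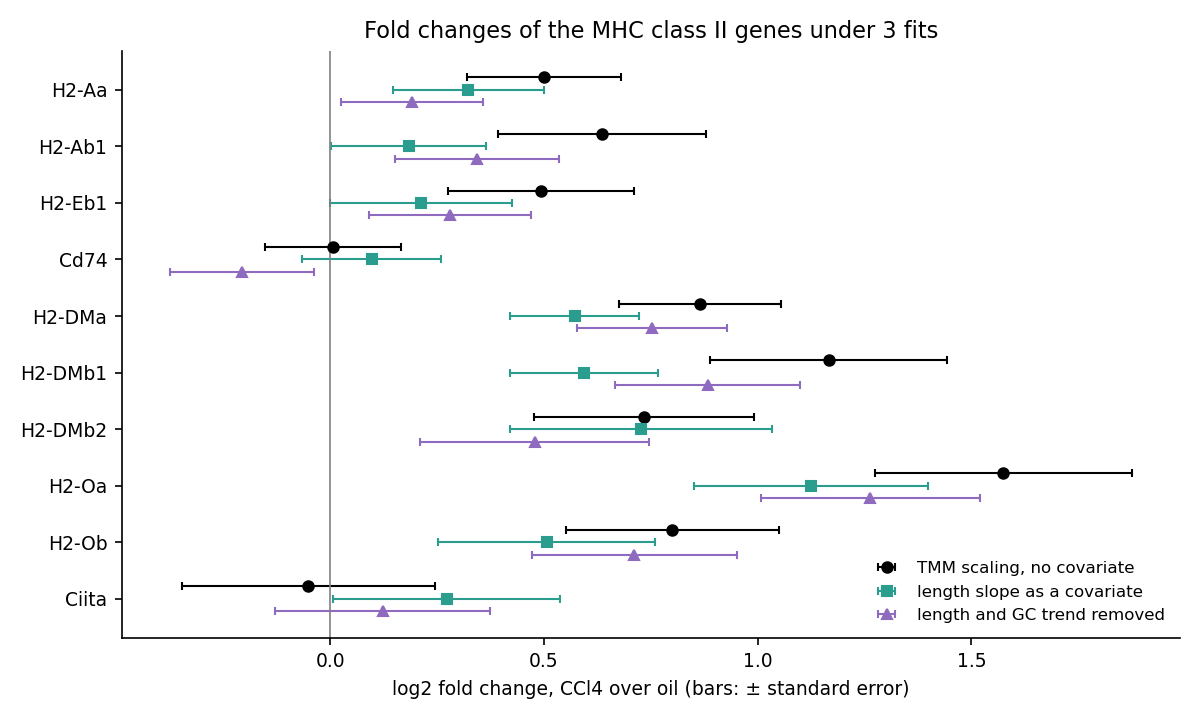
Log2 fold changes, CCl4 over oil, with standard errors, for the 10 genes in the fit without a covariate (circles), with the length slope as a covariate (squares) and with the length and GC trend removed (triangles). H2-DMa, H2-DMb1 and H2-Oa stay past the threshold in all 3 fits, and Cd74 and Ciita in none.

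After the group means were taken out, the log2 CPM of H2-Aa, H2-Ab1, H2-Eb1, H2-DMa and H2-DMb1 went together across the 12 livers, with Pearson's r of 0.732 to 0.987 over their 10 pairs. The genes share the libraries and their length slopes, so this is a description. Ciita had r between -0.584 and 0.107 with the other 9 genes, and Cd74 between -0.013 and 0.645. Among 11707 genes whose mean log2 CPM reached 1, the gene ID 102641359, which has no name in the tables used, was most like H2-Ab1 (r = 0.985 over 12 livers); where it lies is not known here, so it cannot be said whether it shares reads with H2-Ab1. After it came Nmnat3 (r = 0.945), Nmi (0.944), Fcgr4 (0.940) and H2-Eb1 (0.940). Nmnat3, an enzyme of NAD synthesis, and Nmi, an interferon-induced protein, did not pass between groups (log2 fold change 0.18 and 0.27), and Fcgr4, an activating receptor for IgG, rose (log2 fold change 1.30, adjusted p = 9.19e-05). Cd74 ranked 4263 by this measure.

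The 8 members on chromosome 17 lie within 224 kilobases (34092379 to 34316674), beside 5 other tested genes that serve other tasks. Tap1, a subunit of the peptide pump of class I presentation, averaged 26.1 ± 3.29 CPM in CCl4 livers and 19.2 ± 4.58 CPM in oil livers and rose 1.36-fold (adjusted p = 0.0460), a call lost in 16 of 22 alternative fits. Psmb9 and Psmb8, subunits of the immunoproteasome, and Tap2, the partner of Tap1, did not pass, with log2 fold changes of 0.45 (adjusted p = 0.239), 0.28 (adjusted p = 0.209) and -0.11 (adjusted p = 0.666). Brd2, a reader of acetylated histones between H2-Oa and H2-DMa, fell to 80.6 ± 16.3 CPM in CCl4, against 105.1 ± 5.28 CPM in oil (log2 fold change -0.38 ± 0.13, adjusted p = 0.0340), also lost in 11 of 22 alternative fits. Of the 5 neighbours 1 thus rose and 1 fell, where 6 of the 8 members there rose. Over all tested genes 20.6% rose and 18.4% fell.

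**Figure D5:**
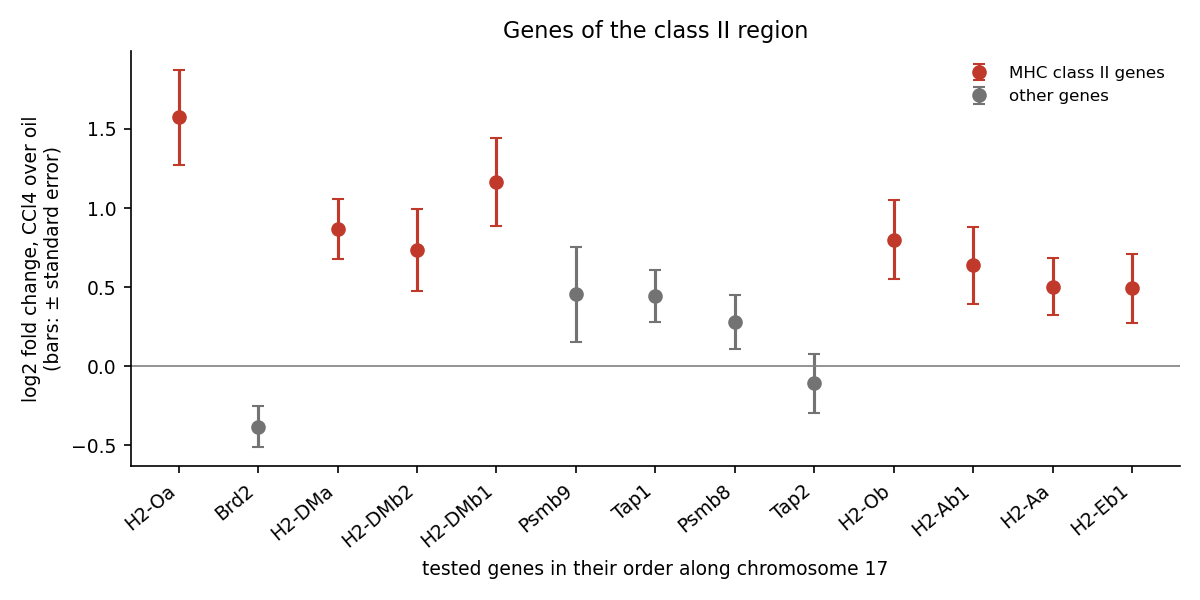
Log2 fold changes, CCl4 over oil, with standard errors, of the 13 tested genes between H2-Oa and H2-Eb1, in their order along chromosome 17 and not to scale. The class II genes lie from 0.49 to 1.58 and the 5 other genes from -0.38 to 0.45.

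Of 10 genes for transcription of class II genes 2 rose and 0 fell, with a median log2 fold change of -0.15, where 20.6% of all tested genes rose. Without CCl4 replicate 1 or CCl4 replicate 5 the list had 5 called genes, the added ones being Creb1, Crebbp and Rfx5, all lower in CCl4. The promoter-box proteins Rfx5 (7.70 ± 2.06 CPM in CCl4 livers and 10.2 ± 2.12 CPM in oil livers), Rfxap and Rfxank did not pass (adjusted p = 0.109, 0.973 and 0.291), nor did the Y box proteins Nfya, Nfyb and Nfyc. Irf8 rose 1.92-fold (adjusted p = 1.92e-05) and Spi1 2.42-fold (adjusted p = 2.43e-05), and both are transcription factors of myeloid cells. All 6 CCl4 livers lay above all oil livers for each, as they did for 12% of tested genes. On the route from interferon gamma to Ciita, the receptor chains Ifngr1 and Ifngr2 rose 1.78-fold and 1.89-fold (adjusted p = 4.07e-05 and 0.0139). Ifng itself had at most 4 reads in any liver and was not tested.

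Of 10 genes for endosomal processing 5 rose and 1 fell, with a median of 0.52, beside 20.6% risen and 18.4% fallen among all tested genes. Ctss, the cathepsin that trims the invariant chain, rose 3.03-fold to 112.6 ± 11.2 CPM in CCl4, against 37.2 ± 4.92 CPM in oil (adjusted p = 5.36e-07). Lgmn, the asparagine endopeptidase, rose 3.16-fold (adjusted p = 3.14e-06) and Ifi30, the reductase of endosomal disulfides, 2.19-fold (adjusted p = 1.32e-05). Sppl2a, the protease that removes the stub of the invariant chain from the membrane, fell 1.28-fold (adjusted p = 0.0303), a call lost in 6 of 22 alternative fits. All 6 CCl4 livers lay above all oil livers for Ctss, Lgmn, Ifi30, Ctsb and Ctsd, as they did for 12% of tested genes.

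The ubiquitin ligases of class II molecules went opposite ways. Marchf1, which removes them from the surface of dendritic and B cells, rose 2.21-fold to 3.804 ± 1.13 CPM in CCl4, against 1.72 ± 0.584 CPM in oil (adjusted p = 0.00285). Marchf8, its widely expressed relative, fell 1.72-fold to 64.2 ± 6.77 CPM in CCl4, against 110.4 ± 9.51 CPM in oil (adjusted p = 6.56e-05). With the adaptor subunit Ap1s2, which rose 3.27-fold (adjusted p = 1.98e-06), 2 of 6 genes of turnover and trafficking rose and 1 fell. Beside this list and those that follow, 20.6% of all tested genes rose and 18.4% fell. Of 6 tested costimulation genes 3 rose and 0 fell: Icosl 3.06-fold (adjusted p = 2.76e-05), Cd86 2.05-fold (adjusted p = 0.00822) and Cd40 2.65-fold (adjusted p = 0.0129), while Cd80 averaged 0.901 CPM in CCl4 livers and 0.881 CPM in oil livers. Of 7 tested genes of T cells that read class II 0 rose and 1 fell, and 2 fell without CCl4 replicate 2 or 6 or oil replicate 5, when Lag3 also passed. The 1 that fell with all livers was Cd4, the coreceptor, which T cells and some myeloid cells carry, at 0.492 ± 0.157 CPM in CCl4 livers and 1.86 ± 0.898 CPM in oil livers (adjusted p = 0.00187). Cd3e, of the T cell receptor complex, averaged 0.478 ± 0.104 CPM in CCl4 livers and 0.536 ± 0.0946 CPM in oil livers (adjusted p = 0.560).

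Most of the markers of macrophages, monocytes, Kupffer cells, dendritic cells and B cells were higher in CCl4, and their part in the class II values was not tested. Of 8 macrophage markers 6 rose and 0 fell, and their summed level ran from 442 to 916 CPM in CCl4 and from 205 to 300.3 CPM in oil. Csf1r and Mertk did not pass (log2 fold change 0.40 and -0.08, adjusted p = 0.0684 and 0.675). All 6 monocyte markers rose (39.0 to 68.1 CPM in CCl4, 9.41 to 17.7 CPM in oil), as did 4 of 6 Kupffer cell markers (368 to 761 CPM in CCl4, 164 to 274 CPM in oil). The Kupffer cell markers Clec4f and Timd4 did not pass (log2 fold change 0.58 and 0.27, adjusted p = 0.0597 and 0.2165). Of 9 dendritic cell markers 7 rose (18.6 to 29.7 CPM in CCl4, 10.1 to 15.7 CPM in oil), with Flt3 5.59-fold and Itgax 6.72-fold higher. Zbtb46 and Xcr1 did not pass (log2 fold change -0.23 and 0.05, adjusted p = 0.294 and 0.910). Of 8 B cell markers 5 rose (8.64 to 11.3 CPM in CCl4, 4.79 to 6.97 CPM in oil), with Cd79b 2.18-fold higher. Pax5 was among those that did not pass (log2 fold change -0.09, adjusted p = 0.878). Among all tested genes 20.6% rose and 18.4% fell. None of these sums overlapped between the groups, and 0 marker genes were without reads in all livers. For single genes, all CCl4 livers lay above all oil livers in 12% of those tested. The summed macrophage markers were highest in CCl4 replicate 6 at 916 CPM and lowest among CCl4 livers in replicate 5 at 442 CPM, the CCl4 livers with the most and the least H2-Ab1. These livers also had the lowest and the highest length slope among CCl4 livers (-0.38 and 0.16). Across the CCl4 livers the macrophage sum fell as the slope rose, and what lies behind this match was not tested. The Kupffer cell sum was also highest in CCl4 replicate 6, at 761 CPM. It was 374.7 CPM in CCl4 replicate 5 and lowest among CCl4 livers in replicate 1, at 368 CPM. Monocyte markers summed to 68.1 CPM in CCl4 replicate 6, their highest, and to 39.0 CPM in CCl4 replicate 4, their lowest among CCl4 livers. B cell markers were highest in CCl4 replicate 2 at 11.3 CPM and lowest among CCl4 livers in replicate 5 at 8.64 CPM. Dendritic cell markers did not follow H2-Ab1 in this way, at 23.2 CPM in CCl4 replicate 6 and 29.6 CPM in CCl4 replicate 5. Among oil livers the macrophage sum was highest in replicate 5 and H2-Ab1 in replicate 4.

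Of the other marker lists, all 6 genes of activated stellate cells, 3 of 4 tested of plasma cells and 2 of 5 of cholangiocytes rose. In sinusoidal endothelium 1 of 6 rose and 1 fell, where 20.6% of all tested genes rose and 18.4% fell. Of 5 hepatocyte genes 0 rose and 1 fell (Hnf4a, 2.08-fold), and Alb averaged 77060 CPM in CCl4 livers and 78020 CPM in oil livers. Transcripts of skeletal muscle summed to 240.7 CPM in CCl4 replicate 1, the CCl4 liver with the most Cd74, to 44.2 CPM in CCl4 replicate 3 and to at most 1.43 CPM in oil livers. Without CCl4 replicate 1 or 3 in turn, H2-DMa, H2-DMb1, H2-Oa and H2-Ob still passed. H2-Aa (adjusted p = 0.0535 and 0.0583) and H2-DMb2 (adjusted p = 0.0657 and 0.0715) lost their calls. No fit left out both of these livers. Total counts per library ran from 53602695 to 69203292 in CCl4 and from 43027778 to 70375852 in oil, and counting error alone is small for the classical chains and wide for H2-Oa, H2-DMb2 and Ciita, which had at most 125 reads in any liver.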

How the data were processed

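Raw whole-number read counts of each gene were deposited by the authors for 12 libraries, 1 per liver, and again as a joint table with equal values. Libraries were made from column-purified RNA with a stranded total RNA kit, per the labels' protocols. The build was GRCm38, per the submitters' processing notes; the sources used here do not give the aligner, counter, annotation or use of strand.

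Names and coordinates came from RefSeq for GRCm38.p6, which named 31049 of 36528 IDs, with 78 more from GENCODE M21; transcript lengths were those of GENCODE M21. Counts without a name made 2.19%. The test was edgeR's (version 4.0.16, R 4.3.3) robust quasi-likelihood F test after filterByExpr and TMM scaling, with Benjamini-Hochberg adjustment and a threshold of 0.05. CPM are counts scaled to library size by edgeR, log2 CPM used a prior count of 2, and the SE was the log2 fold change divided by the square root of F. Alternatives used limma 3.58.1 and DESeq2 1.42.0. The filter in them was 50 counts in 6 libraries, or none, and the lowess span was 0.3. Ratios were tested with scipy 1.17.1. Replicate numbers follow accession order and only name livers. No pair of replicates looked like 1 library deposited again (lowest chi-square per gene over 30 pairs, 53.9). The scripts were tested on simulated data. The members and lists were chosen with earlier results of these data known. Named genes were the 10 members, up to 3 called genes per list and direction, defining genes that did not pass, the region's genes, and the 5 most like H2-Ab1. Csf1r, Mertk, Clec4f, Timd4, Flt3, Itgax, Zbtb46, Xcr1, Cd79b, Pax5, Hnf4a and Alb were chosen after their values were seen. Some genes of the lists are not reported here.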

Additional observations from a re-analysis of the deposited data

Results flagged for a closer look

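Within groups of 6 livers, 2 of 38 sets of values (10 genes and 9 ratios, each in CCl4 and in oil) had a liver whose gap to the nearest other, as a share of the whole range, exceeded Dixon's critical value; about 1 in 20 sets would do so by chance. The first was Cd74 in CCl4 replicate 1, at 110.8 CPM against 78.3 to 89.0 CPM in the other 5 CCl4 livers. The second was the log2 ratio of H2-DMa to H2-Ab1 in oil, at -3.22 in oil replicate 4 and from -2.84 to -2.62 in the other 5 oil livers.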

How the results depend on the processing

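The count of class II genes that rose was 6 as reported and ran from 3 to 8 when each library was left out in turn. It was 3 with the length slope as a covariate and 3 when CCl4 replicate 6 and oil replicate 5, whose slopes lean most to short transcripts, were both left out; the other 8 settings gave counts within 1.5 times of 6, with 8 under upper-quartile scaling, which moved the median of all genes to 0.13 on the log2 scale. The count of all genes called ran from 5190 to 8738, and rises made 3305 of 6256 calls as reported and 4164 of 6186 under upper-quartile scaling. H2-DMa, H2-DMb1 and H2-Oa kept their calls in every fit that tested them; under the filter of 50 counts in 6 libraries H2-Oa, H2-DMb2 and Ciita were not tested. The log2 fold change of Cd74 ran from -0.21 to 0.12 and that of Ciita from -0.33 to 0.27, none past the threshold. Of the ratios, H2-DMa over H2-Ab1 passed with the length and GC trend removed (log2 difference 0.39, exact permutation adjusted p = 0.0195), and its log2 difference ran from 0.17 to 0.31 with each library left out; H2-Oa over H2-DMa ran from 0.48 to 0.68. The difference between classical and non-classical chains ran from -0.51 to -0.38 with each library left out and was -0.48 without H2-DMb2; with the length and GC trend removed, an alternative chosen after seeing the data, it was -0.47. No paired analysis was possible because the labels give the groups no shared replicate numbers. The cause of these changes was not tested. Depth limits H2-DMb2, with 5 to 40 reads per liver.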
